A study of Mus musculus with 12 samples.

Results

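The 9 genes described here, Pdgfc, Fry, Mcf2, Ly6g6e, Mipol1, Lrrc31, Osbpl10, Zmat4 and Zc3h6, were chosen by their array signal, which was among the furthest below that of untreated cells after 4 or 6 h of retinoic acid (RA). All 20 probe sets that the platform annotation names for them were taken, out of 45037 probe sets other than controls, and 9 genes out of 18193 with a probe set of their own. The study followed KH2 mouse embryonic stem (ES) cells, a line engineered to accept transgenes beside Col1a1, through the first hours of RA treatment. Biotin-labelled RNA was hybridised to Affymetrix mouse arrays, 3 per group, labelled A, B and C. The groups were KH2 cells left without RA, and KH2 cells given 0.3 µM RA in a differentiation medium for 2 h, 4 h or 6 h. All groups were grown on feeder cells, and the labels name no gene deletion. The labels tie the differentiation medium to the RA groups, so RA and the change of medium cannot be told apart. Nothing in the labels says that replicates came from separate cultures, so the tests measure the spread between these arrays, which may be technical.

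Retinoic acid is a derivative of vitamin A that enters the nucleus and binds retinoic acid receptors, which sit on DNA as pairs with retinoid X receptors. Ligand-bound receptors switch on genes such as Cyp26a1 and the Hox genes, and ES cells given RA leave the pluripotent state, with many genes of that state declining in turn. The 9 genes encode unrelated proteins. Pdgfc is a secreted growth factor of the platelet-derived growth factor (PDGF) family and Ly6g6e a small lipid-anchored surface protein. Fry is a large scaffold that binds microtubules and activates NDR kinases, and Mcf2, also called Dbl, is a guanine nucleotide exchange factor. Osbpl10 belongs to the oxysterol-binding proteins, which bind lipids at membranes. Mipol1 is a coiled-coil protein, Lrrc31 a leucine-rich repeat protein, Zmat4 a matrin-type zinc finger protein, and Zc3h6 a CCCH zinc finger protein.

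The promoter windows are shown first because RA receptors bind DNA at short half-sites, whose letters stand in some of these windows and not in others. RefSeq windows of 250 bases before to 50 after a start were found for 5 of the 9 genes, Pdgfc, Fry, Mcf2 (2 windows), Lrrc31 and Zc3h6. The sequences are from RefSeq, assembly GRCm38.p6, written 5′ to 3′ on the strand of the gene. Capitals mark matches, on either strand, to the receptor half-site AGGTCA, the GC box GGGCGG, the CCAAT box, the TATA box TATAAA or the E-box CACGTG. Mcf2 (chrX:60179040-60179339, minus strand) and Zc3h6 (chr2:128967152-128967451, plus strand) are printed because they hold the exact letters AGGTCA on either strand. Pdgfc (chr3:81036166-81036465, plus strand) and Lrrc31 (chr3:30699794-30700093, minus strand) are printed because they do not, which leaves variant half-sites in them unsearched.
Mcf2: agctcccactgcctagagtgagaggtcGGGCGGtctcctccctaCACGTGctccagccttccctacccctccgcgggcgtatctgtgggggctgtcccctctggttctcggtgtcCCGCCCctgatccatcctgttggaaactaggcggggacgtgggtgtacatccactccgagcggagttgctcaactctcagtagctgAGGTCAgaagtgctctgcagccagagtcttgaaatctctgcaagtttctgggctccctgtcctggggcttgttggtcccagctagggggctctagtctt
Zc3h6: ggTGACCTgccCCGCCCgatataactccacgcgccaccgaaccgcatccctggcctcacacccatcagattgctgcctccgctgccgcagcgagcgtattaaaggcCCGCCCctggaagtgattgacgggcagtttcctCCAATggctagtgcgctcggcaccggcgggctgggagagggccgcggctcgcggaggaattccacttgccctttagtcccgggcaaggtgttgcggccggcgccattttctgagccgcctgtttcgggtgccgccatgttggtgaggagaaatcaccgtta
Pdgfc: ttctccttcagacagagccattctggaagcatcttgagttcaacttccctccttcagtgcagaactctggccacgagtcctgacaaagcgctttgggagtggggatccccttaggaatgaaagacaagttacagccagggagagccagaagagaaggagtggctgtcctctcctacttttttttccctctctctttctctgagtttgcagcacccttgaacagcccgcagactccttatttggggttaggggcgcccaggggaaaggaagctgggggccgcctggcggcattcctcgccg
Lrrc31: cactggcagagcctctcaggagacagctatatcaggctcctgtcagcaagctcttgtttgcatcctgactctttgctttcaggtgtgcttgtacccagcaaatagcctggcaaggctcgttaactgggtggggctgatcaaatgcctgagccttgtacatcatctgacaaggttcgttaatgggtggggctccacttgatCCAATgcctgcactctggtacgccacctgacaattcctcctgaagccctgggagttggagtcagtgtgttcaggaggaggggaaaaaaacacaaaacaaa

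AGGTCA lay at bases 202 to 207 of the Mcf2 window, and its reverse complement at bases 3 to 8 of the Zc3h6 window. The same letters were in 16.3% of all 32851 promoter windows of that table. None of the 6 windows held the direct repeat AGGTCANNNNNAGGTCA, which 0.00913% of all windows held. GGGCGG was in the windows of Fry, Mcf2 and Zc3h6 and in 35.7% of all. CCAAT was in those of Lrrc31 and Zc3h6 and in 37.4% of all. TATAAA was in none of the 6 and in 13.6% of all, and CACGTG was in the Mcf2 window shown and in 7.15% of all. The windows differed in their number of CG dinucleotides, with 28 in Zc3h6, 12 in the Mcf2 window shown, 8 in Pdgfc and 3 in Lrrc31, against a median of 7 over all windows. A match is a run of letters in a fixed window, and nothing in these arrays measures receptor binding.

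The RA response and the cell makeup of the arrays were checked on genes outside the 9. Cyp26a1, the main RA-degrading enzyme, was 6.11, 6.85 and 6.46 higher on the log2 scale at 2, 4 and 6 h than without RA, and Rarb, an RA receptor gene, was 1.88, 2.16 and 1.73 higher. The mean log2 signal of 13 ES cell markers was 12.63 to 12.65 without RA, 12.61 to 12.63 at 2 h, 12.31 to 12.40 at 4 h and 12.26 to 12.37 at 6 h. Of these 13 markers 6 were called lower and 1 higher at 4 h against no RA, and likewise at 6 h, and Pou5f1, a core pluripotency factor, was not called at any time. Of all genes, 12.5% were called lower and 11.2% higher at 4 h, and 13.1% lower and 13.3% higher at 6 h. The mean of the 22 measured of 26 feeder fibroblast markers was 8.0 to 8.71 without RA, 8.50 to 8.67 at 2 h, 8.58 to 8.72 at 4 h and 8.47 to 8.62 at 6 h. Feeder markers were thus measurable in every group, and the labels describe replating on gelatin before lysis. Untreated array C stood apart, with correlations of 0.993 with arrays A and B over all probe sets, against 0.997 between A and B, and 18 of 22 feeder markers lower than the mean of A and B. In RNA from a mixed culture, fewer cells of a type and less RNA per cell cannot be told apart.

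All values below are deposited log2 signals, and differences are between means of 3 arrays, with the standard error (SE) that limma gave in a fit over all probe sets. For each gene the brightest of its probe sets leads the account. The differences at 4 and 6 h against no RA chose the genes, so they are given as descriptions with no test. Adjusted p-values are given for the other comparisons. The difference at 2 h against no RA shares its untreated arrays with that choice, the step to 4 h from 2 h shares its 4 h arrays, and in the step to 6 h from 4 h both groups took part in the choice. None of these p-values is independent of how the genes were chosen. A probe set was called when the p adjusted over all 45037 probe sets was under 0.05. Signals under 6.07, the median of all values, were not tested against background. All 4 h and 6 h arrays of Mcf2, Lrrc31 and Zc3h6 and all 6 h arrays of Fry lay there, as did single arrays of Mipol1, Osbpl10 and Zmat4 at these times. Zc3h6 was also under it on untreated arrays A and B and on 2 h arrays A and B, so that its values rest mostly on low signals. Some probe sets other than the lead were under it on all 12 arrays. These were 1457131_at and 1458985_at of Fry, 1448059_at and 1459228_at of Mipol1, 1438113_at and 1459628_at of Zmat4, and 1453477_at of Zc3h6. Whether they could show a fall was not tested.

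The lead probe sets of 8 of the 9 genes were called lower in the step to 4 h from 2 h, in a comparison that called 9.92% of all genes lower by that rule, and Zmat4, at -0.86, was not called. Over all their probe sets, 12 of 20 were called lower at 4 h than at 2 h, in a comparison that called 7.09% of all probe sets lower. The median of the 9 lead differences was -1.51 for that step. It was -0.21 at 2 h against no RA, and -0.33 for the step to 6 h from 4 h, while the median over all probe sets lay close to 0 in each comparison. At 2 h against no RA 1 of the 20 probe sets was called lower, against 0.906% of all probe sets. At 6 h against 4 h 1 of the 20 was called lower, against 0.0688% of all. Without untreated array C, 4 of the 20 were called lower at 2 h against no RA, where 2.1% of all probe sets were. In the same fit 14 were called lower at 4 h against 2 h, where 9.72% of all were, and 4 at 6 h against 4 h, where 0.471% of all were. The choice of genes by low signals at 4 or 6 h favours lower calls at 4 h against 2 h. It bears on the other comparisons too, so all of these counts are a description.

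**Figure D1:**
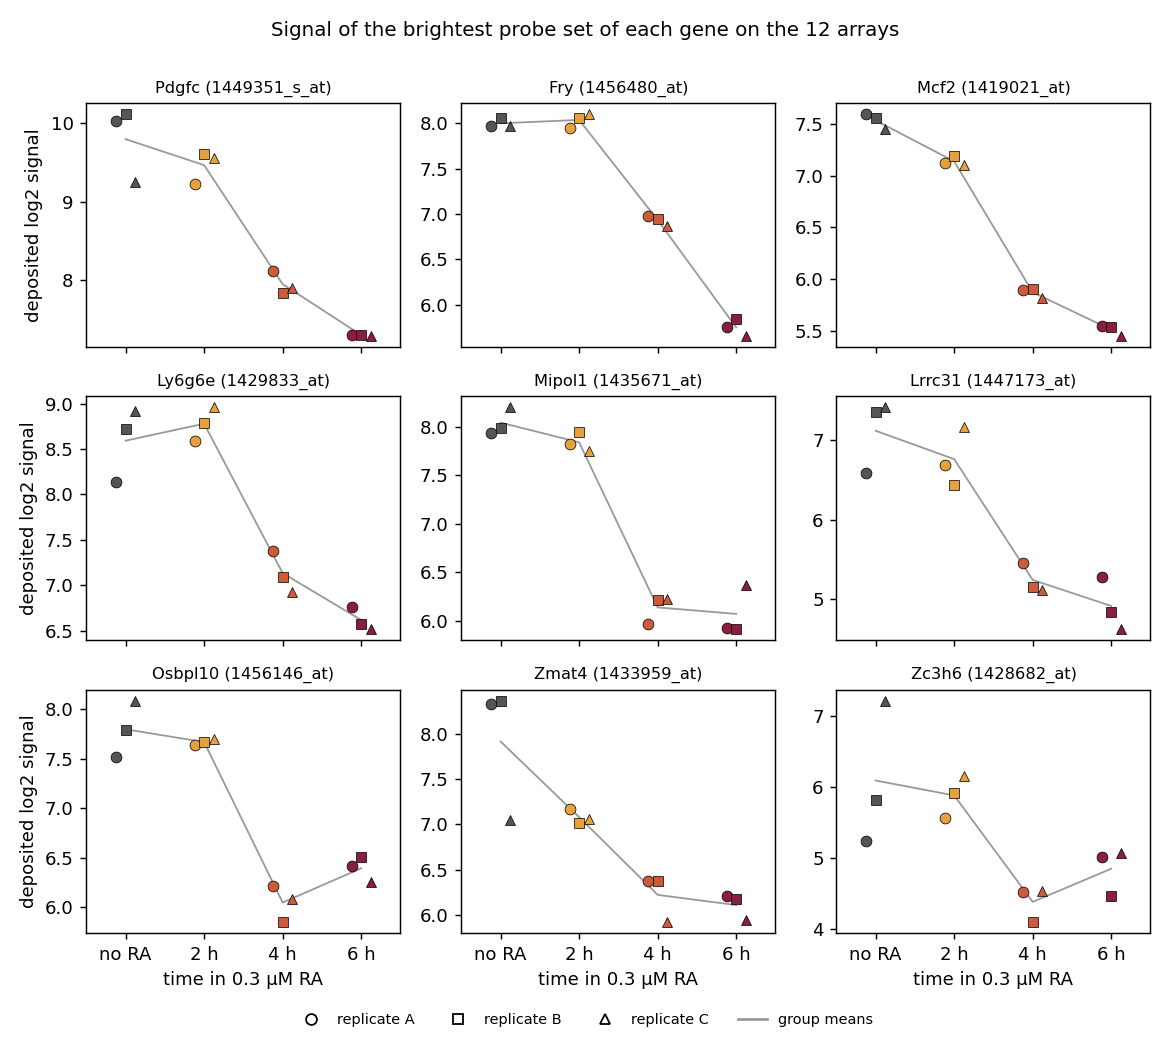
Log2 signal (vertical axes) of the lead probe set of each of the 9 genes on every array, by time in RA from no RA to 6 h (horizontal axes), with a marker shape for each replicate letter and a line through the group means. Every gene has its 4 h and 6 h arrays below all of its untreated arrays, and in Zmat4 and Zc3h6 the untreated arrays themselves are spread over more than 1 log2 unit.

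Pdgfc lay further below no RA at 6 h than any other gene. Its lead probe set, 1449351_s_at, read 10.02, 10.11 and 9.25 without RA, 9.23, 9.61 and 9.55 at 2 h, 8.12, 7.84 and 7.90 at 4 h, and 7.31, 7.31 and 7.30 at 6 h (arrays A, B and C). The 6 h arrays were nearly alike and all below the 4 h arrays, the 4 h arrays were all below the 2 h arrays, and the 2 h arrays overlapped the untreated ones, of which array C was the lowest. Differences from no RA were -0.33 ± 0.19 at 2 h (adjusted p = 0.421), -1.84 at 4 h and -2.49 at 6 h. In the step to 4 h from 2 h the signal fell by 1.51 (limma, adjusted p = 0.000274), and the step to 6 h from 4 h was -0.65 (adjusted p = 0.203).

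The second Pdgfc probe set, 1419123_a_at, had a like course, at -1.96 at 4 h and -2.68 at 6 h against no RA. It fell by 1.62 at 4 h against 2 h (limma, adjusted p = 3.19e-05). Without untreated array C, the lead probe set was called in both of the other comparisons, with -0.60 at 2 h against no RA (limma, adjusted p = 0.0154) and an adjusted p of 0.0185 at 6 h against 4 h. The second probe set gained both calls too, with adjusted p of 0.00466 and 0.00279. Its step to 6 h from 4 h was not called in the main fit (limma, adjusted p = 0.0646). Some other settings called that step too, among them leaving out untreated array B (adjusted p = 0.0341) and fitting only the 6 h and 4 h arrays (0.032).

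Ly6g6e, whose family includes surface proteins such as Ly6a and the urokinase receptor, had no called difference at 2 h. Probe set 1429833_at read 8.14, 8.72 and 8.92 without RA, 8.59, 8.79 and 8.96 at 2 h, 7.38, 7.09 and 6.93 at 4 h, and 6.76, 6.57 and 6.52 at 6 h. The 2 h arrays overlapped the untreated ones, and the 4 h and 6 h arrays lay below all of both groups without overlapping each other. The difference from no RA was 0.19 ± 0.18 at 2 h (limma, adjusted p = 0.659), -1.46 at 4 h and -1.98 at 6 h. The signal fell by 1.65 in the step to 4 h from 2 h (limma, adjusted p = 0.00014), and the step to 6 h from 4 h was -0.52 (adjusted p = 0.31).

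Fry was the only one of the 9 genes called in the step to 6 h from 4 h, and the only one whose 2 later steps were of about the same size. Its lead probe set 1456480_at read 7.97, 8.06 and 7.97 without RA, 7.95, 8.06 and 8.10 at 2 h, 6.98, 6.95 and 6.87 at 4 h, and 5.75, 5.84 and 5.66 at 6 h. Arrays within a group lay close together, the 2 h arrays overlapped the untreated ones, and the 4 h arrays lay midway between them and the 6 h arrays. It fell by 1.11 at 4 h against 2 h (limma, adjusted p = 7.03e-06), and fell by 1.18 at 6 h against 4 h (adjusted p = 4.3e-05). No gene had a lower difference in that last step. Against no RA it stood at 0.04 ± 0.071 at 2 h (limma, adjusted p = 0.841), -1.07 at 4 h and -2.25 at 6 h.

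The other 3 Fry probe sets, 1457131_at, 1458985_at and 1459696_at, did not follow the lead, with correlations to it of 0.33, 0.27 and 0.50 over the 12 arrays. Of these, 1457131_at and 1458985_at were under the median of all values on all 12 arrays, and 1459696_at lay close to it. One of them, 1459696_at, was called lower at 4 h against 2 h, by 0.35 ± 0.092 (limma, adjusted p = 0.0225), and lost that call when any of 5 single arrays was left out. Against no RA it was 0.31 higher at 2 h (limma, adjusted p = 0.127) and stood at -0.04 at both 4 h and 6 h. The called step therefore brought it back near its untreated level.

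Mcf2 was the only gene of the 9 called at 2 h. Probe set 1419021_at read 7.59, 7.55 and 7.45 without RA, 7.12, 7.19 and 7.10 at 2 h, 5.90, 5.91 and 5.82 at 4 h, and 5.55, 5.54 and 5.46 at 6 h. No 2 groups overlapped, and each RA time lay below the one before it. At 2 h against no RA it fell by 0.39 ± 0.066 (limma, adjusted p = 0.0098), and the differences at 4 and 6 h were -1.65 and -2.01. The step to 4 h from 2 h was -1.26 (limma, adjusted p = 4.36e-06) and the step to 6 h from 4 h was -0.36 (adjusted p = 0.0599). The 2 h call was lost without 2 h array A (adjusted p = 0.0535) and when only the 2 h and untreated arrays were fitted (adjusted p = 0.0949). Without untreated array C the step to 6 h from 4 h was called (adjusted p = 0.0199). Some other settings called that step too, among them 1 probe set per gene (adjusted p = 0.0277) and dim probe sets left out (0.022).

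Osbpl10 was lowest at 4 h. Its lead probe set 1456146_at read 7.52, 7.79 and 8.09 without RA, 7.64, 7.67 and 7.70 at 2 h, 6.21, 5.85 and 6.08 at 4 h, and 6.42, 6.51 and 6.25 at 6 h. All 6 h arrays were above all 4 h arrays and below all 2 h and untreated arrays. The differences from no RA were -0.13 ± 0.13 at 2 h (limma, adjusted p = 0.669), -1.76 at 4 h and -1.41 at 6 h. The step to 4 h from 2 h was -1.62 (limma, adjusted p = 3.04e-05), and the step to 6 h from 4 h, 0.35, was not called (adjusted p = 0.362). A second probe set, 1424870_at, fell by 0.94 ± 0.098 at 4 h against 2 h (limma, adjusted p = 9.97e-05) but did not have the higher 6 h arrays, reading 6.22, 6.36 and 6.33 at 6 h and 6.38, 6.40 and 6.56 at 4 h.

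Mipol1 had nearly all of its difference by 4 h. Its lead probe set 1435671_at read 7.94, 7.99 and 8.20 without RA, 7.82, 7.95 and 7.75 at 2 h, 5.97, 6.22 and 6.23 at 4 h, and 5.93, 5.92 and 6.37 at 6 h. The 4 h and 6 h arrays overlapped, and both groups were more than 1 log2 unit below every earlier array. The differences from no RA were -0.20 ± 0.13 at 2 h (limma, adjusted p = 0.475), -1.90 at 4 h and -1.97 at 6 h. The signal fell by 1.70 in the step to 4 h from 2 h (limma, adjusted p = 1.56e-05), and the step to 6 h from 4 h was -0.07 (adjusted p = 0.894). Probe set 1432284_at, with a correlation of 0.99 to the lead, fell by 0.89 ± 0.10 in the step to 4 h from 2 h (limma, adjusted p = 0.000185). The other 2 Mipol1 probe sets, 1448059_at and 1459228_at, had correlations of -0.08 and 0.60 to the lead and were not called in any of the tested comparisons.

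Lrrc31 has 1 probe set, 1447173_at, which read 6.59, 7.35 and 7.41 without RA, 6.69, 6.43 and 7.16 at 2 h, 5.46, 5.15 and 5.12 at 4 h, and 5.28, 4.84 and 4.63 at 6 h. The 2 h arrays overlapped the untreated ones and the 6 h arrays overlapped the 4 h ones, with a gap between 2 h and 4 h. The differences from no RA were -0.35 ± 0.24 at 2 h (limma, adjusted p = 0.51), -1.87 at 4 h and -2.20 at 6 h. In the step to 4 h from 2 h the signal fell by 1.52 (limma, adjusted p = 0.00117), and the step to 6 h from 4 h was -0.33 (adjusted p = 0.666).

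Zmat4 rests on how the untreated arrays are read. Its lead probe set 1433959_at read 8.33, 8.37 and 7.05 without RA, 7.17, 7.01 and 7.06 at 2 h, 6.37, 6.37 and 5.92 at 4 h, and 6.21, 6.17 and 5.94 at 6 h. Untreated array C was at the level of the 2 h arrays, and arrays A and B were more than 1 log2 unit above them. The difference at 2 h against no RA was -0.84 ± 0.27 (limma, adjusted p = 0.159), and without untreated array C it was -1.27 (adjusted p = 0.000389). The differences at 4 and 6 h against no RA were -1.70 and -1.81, and -2.13 and -2.24 without that array. The step to 4 h from 2 h, -0.86, was not called (limma, adjusted p = 0.0512), and was called without untreated array C (adjusted p = 0.000469), which enters that step only through the shared spread. It was also called without untreated array A or B, or with only the 4 h and 2 h arrays fitted (adjusted p = 0.0427, 0.0359 and 0.00284). The step to 6 h from 4 h was -0.11 (limma, adjusted p = 0.923). Another probe set, 1438113_at, had a correlation of 0.91 to the lead, and 1459628_at one of 0.35, and neither was called in the tested comparisons.

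Zc3h6 had the widest untreated spread. Its lead probe set 1428682_at read 5.24, 5.82 and 7.22 without RA, 5.57, 5.92 and 6.16 at 2 h, 4.52, 4.10 and 4.53 at 4 h, and 5.02, 4.46 and 5.07 at 6 h. The 2 h arrays lay within the untreated range, and untreated array C alone was above 7. The differences from no RA were -0.21 ± 0.38 at 2 h (limma, adjusted p = 0.837), -1.71 ± 0.38 at 4 h and -1.24 at 6 h. Without untreated array C they were 0.35, -1.14 and -0.68, so that 1 array moved the 4 h and 6 h values by 1.5 times or more. In the step to 4 h from 2 h the signal fell by 1.5 (limma, adjusted p = 0.0179). That call was lost without 2 h array B (adjusted p = 0.0555), 2 h array C (0.0709) or 4 h array B (0.0705). The step to 6 h from 4 h was 0.47 (limma, adjusted p = 0.709). Its second probe set, 1453477_at, had a correlation of 0.35 to the lead.

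**Figure D2:**
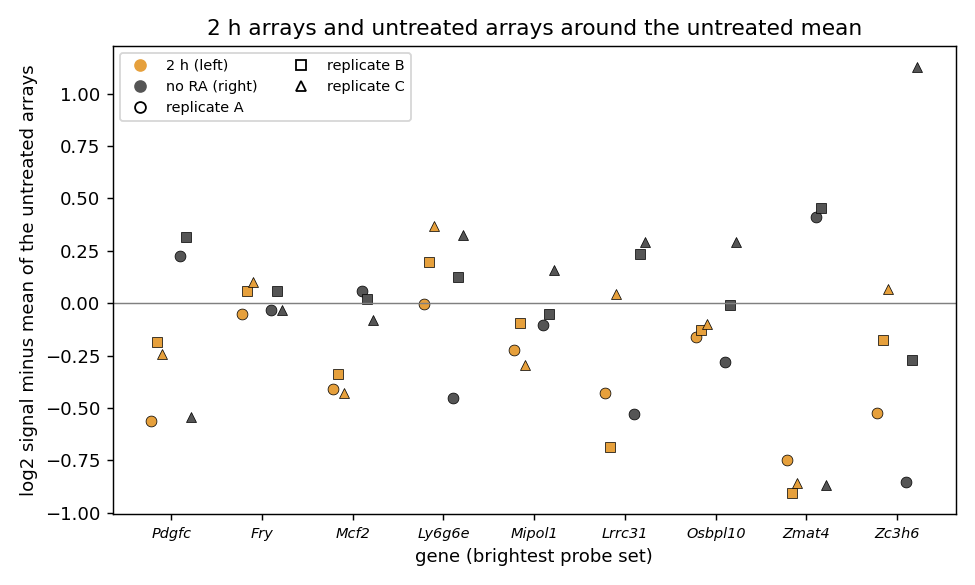
Log2 signal minus the mean of the untreated arrays (vertical axis) for each gene's lead probe set (horizontal axis), with 2 h arrays on the left and untreated arrays on the right and a marker shape for each replicate letter. Untreated array C is the lowest untreated array for Pdgfc, Mcf2 and Zmat4, level with the lowest for Fry, and the highest for the other genes. The 2 h arrays of Mcf2 lie below all of its untreated arrays.

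The spread of the untreated arrays differed widely among the 9 genes. The standard deviation (SD) of the lead probe set over the 3 untreated arrays was 1.0 for Zc3h6, 0.75 for Zmat4, 0.47 for Pdgfc, 0.46 for Lrrc31, 0.41 for Ly6g6e, 0.29 for Osbpl10, 0.14 for Mipol1, 0.074 for Mcf2 and 0.05 for Fry. The median SD over all probe sets was 0.13 on the untreated arrays and 0.085, 0.096 and 0.097 on the 2, 4 and 6 h arrays. The Zc3h6 value was larger than that of 99.9% of probe sets and the Zmat4 value larger than that of 99.6%, while Fry's was larger than that of 12.9%. Array C differed from the mean of untreated arrays A and B by -1.30 for Zmat4, -0.82 for Pdgfc, 1.69 for Zc3h6, 0.49 for Ly6g6e and 0.44 for both Lrrc31 and Osbpl10. The feeder markers had a median difference of -0.50 on array C. Their part in the spread of the 9 genes was not tested.

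**Figure D3:**
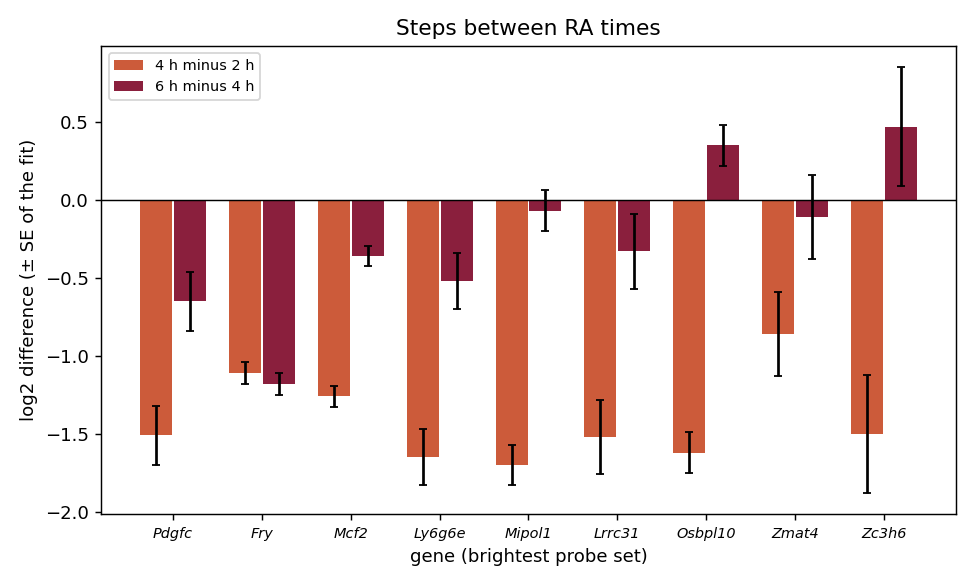
Log2 difference between RA times (vertical axis) for the lead probe set of each gene (horizontal axis), with 4 h minus 2 h and 6 h minus 4 h side by side and bars for the SE of the limma fit. The 4 h minus 2 h bars are all below 0, from -1.70 for Mipol1 to -0.86 for Zmat4, and Fry is the gene whose 6 h minus 4 h bar is as long as its earlier one.

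The share of the 6 h difference from no RA that was present at 4 h differed among the genes. It was 47.5% for Fry, 73.9% for Ly6g6e, 74.1% for Pdgfc, 82.2% for Mcf2, 85.1% for Lrrc31, 93.7% for Zmat4, 96.6% for Mipol1, 125.0% for Osbpl10 and 138.0% for Zc3h6. Both terms of this ratio took part in the choice of genes and share the untreated arrays, so the order is a description. Genes next to each other in it are close, and 8 of the 9 genes had no called difference between 4 h and 6 h. All 4 h arrays of Mcf2, Lrrc31 and Zc3h6 were under the median of all values, and the 4 h means of Mipol1, Osbpl10 and Zmat4 lay close to it. Whether low signals limited further falls in these genes was not tested, so the share is not a measure of timing alone. Over the 12 arrays, correlations between pairs of the 9 lead probe sets ran from 0.50 to 0.98, with a median of 0.905 over 36 pairs. All of these arrays share the same RA course, which the choice of genes fixed.

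The lead probe sets of all 9 genes had no overlap between the 4 h and the untreated arrays, nor between the 6 h and the untreated arrays. Over all 20 probe sets, 13 lay lower without overlap at 4 h, where 14.8% of all probe sets did, and 14 at 6 h, where 16.1% did. These comparisons chose the genes, so the counts follow from that choice and are a description. Ranked by the larger of the differences at 4 and 6 h, Pdgfc was 1, Fry 2, Lrrc31 4, Mcf2 5, Ly6g6e 6, Mipol1 7, Zmat4 8, Osbpl10 12 and Zc3h6 15 among all genes. The 6 genes in between include Fut9, a fucosyltransferase, at -2.21, and Id2, an inhibitor of basic helix-loop-helix factors, at -1.72. Zc3h6 stood at -1.71 as the last of the 9, and just outside were Ndrg1 at -1.68, Fgd5 at -1.66 and Lcorl at -1.62.

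**Figure D4:**
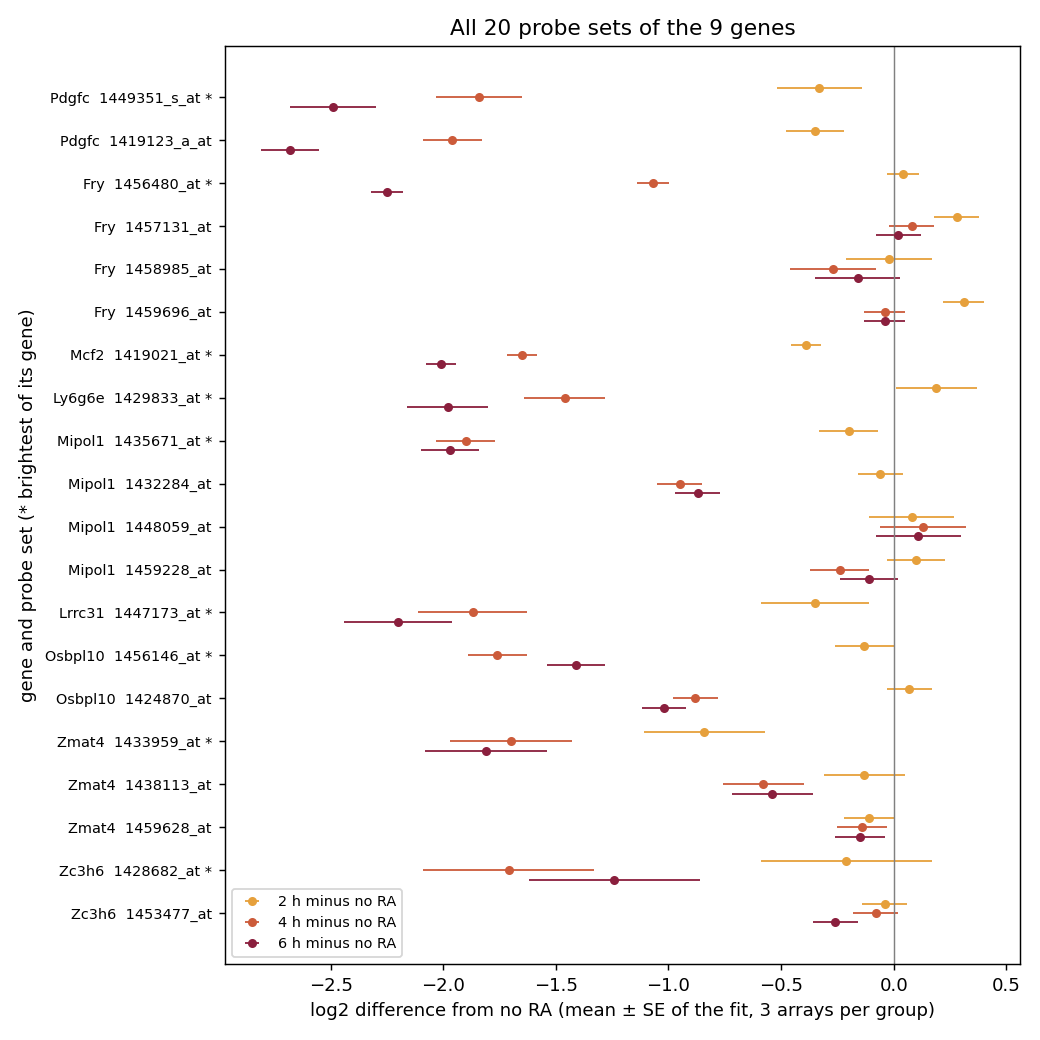
Log2 difference from no RA (horizontal axis) at 2, 4 and 6 h for each of the 20 probe sets of the 9 genes (vertical axis), with bars for the SE of the limma fit, 3 arrays per group, and an asterisk at the brightest probe set of each gene. The lead probe sets lie left of 0 at 4 and 6 h because these differences chose the genes. The other 3 probe sets of Fry, 2 of Mipol1, 1459628_at of Zmat4 and 1453477_at of Zc3h6 stay near 0, most of them at low signals.

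The genes whose signal followed each of the 9 most closely were found by Pearson correlation with its lead probe set over the 12 arrays, as a description. For Pdgfc they were Il6st, the shared receptor subunit of LIF and interleukin 6, with Lpcat1 and Cbr3 (0.992, 0.991 and 0.989). Those for Fry were C1qtnf12, Tnik and St6galnac3 (0.99 each), and those for Mcf2 were Dip2c, Lpcat1 and Peg3 (0.993, 0.992 and 0.990). Ly6g6e was closest to Arrb1, Cds1 and Txndc16 (0.993, 0.992 and 0.992), and Mipol1 to Pla2g10, Supt3 and Dym (0.994, 0.994 and 0.992). Lrrc31 was followed by Jph1, Syt13 and Kif1c (0.984, 0.981 and 0.980), and Zmat4 by Rnd3, Klf9 and Ddx58 (0.980, 0.979 and 0.977). Zc3h6 had Tmtc4, Plekhb2 and Mad2l2 (0.978, 0.975 and 0.973).

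The genes closest to Osbpl10 were picked for following its lead probe set, so their lowest mean at 4 h comes with that choice. Cyp2s1, a cytochrome P450, stood at -1.5 at 4 h and -1.34 at 6 h against no RA, Asap2 at -1.38 and -1.22, and Tjp3, a tight junction protein, at -1.33 and -1.26 (correlations 0.988, 0.987 and 0.987). St6galnac3, close to Fry, stood at -0.97 at 4 h and -1.80 at 6 h. The 27 places were taken by 26 genes, since Lpcat1 was close to both Pdgfc and Mcf2. Of the 27 places, 9 kept their gene when untreated array C was left out, and 1 when ranks were used in place of values.

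The nearest measured protein-coding genes on either side of each of the 9, in the gene order of GRCm38.p6, moved in both directions. Of these 18 neighbours, 7 were called lower and 3 higher at 4 h against no RA, and 6 lower and 2 higher at 6 h, in comparisons that called 12.5% and 13.1% of genes lower and 11.2% and 13.3% higher. At 2 h against no RA 1 of the 18 was called higher and none lower, where 1.25% of all genes were called higher. The 4 h calls of Brca2, Gpd1l and Tcim were lost when single arrays were left out. For Fry, Pdgfc, Mcf2, Mipol1, Osbpl10 and Zc3h6, no neighbour had a called difference below -0.61 at either time.

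Lrriq4, a leucine-rich repeat gene next to Lrrc31 on chromosome 3, had a like course. It read 6.37, 6.70 and 7.14 without RA, 6.66, 6.64 and 6.77 at 2 h, 5.55, 5.49 and 5.53 at 4 h, and 5.23, 4.71 and 4.96 at 6 h. The 4 h and 6 h arrays lay below all earlier arrays and under the median of all values, as for Lrrc31. Lrriq4 was -0.05 at 2 h, fell by 1.21 ± 0.17 at 4 h (limma, adjusted p = 0.000348) and fell by 1.77 at 6 h (adjusted p = 1.98e-05) against no RA.

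Ly6g6d, whose span in the gene table holds that of Ly6g6e, was -0.96 at 4 h (limma, adjusted p = 0.00708) and -1.25 at 6 h (adjusted p = 0.00119) against no RA. All of its 4 h and 6 h arrays, and untreated arrays A and C, were under the median of all values. The 2 genes overlap, and whether their probe sets read the same transcripts was not tested. Sfrp1, a secreted Wnt antagonist beside Zmat4, fell by 0.79 at 4 h (limma, adjusted p = 8.82e-05) and fell by 1.22 at 6 h (adjusted p = 3.05e-06). Foxa1, an endoderm transcription factor beside Mipol1, moved the opposite way, reading 4.40, 4.78 and 5.05 without RA, 6.68, 6.58 and 6.57 at 2 h, 7.00, 6.90 and 7.16 at 4 h, and 7.23, 7.31 and 7.37 at 6 h. It was 1.87, 2.28 and 2.56 higher at 2, 4 and 6 h than without RA (limma, adjusted p = 1.08e-05, 7.15e-07 and 2.08e-07), from untreated values under the median of all values. Zc3h8, a CCCH zinc finger gene beside Zc3h6, was 0.49 higher at 4 h (limma, adjusted p = 0.000195) and 0.44 higher at 6 h (adjusted p = 0.000301).

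**Figure D5:**
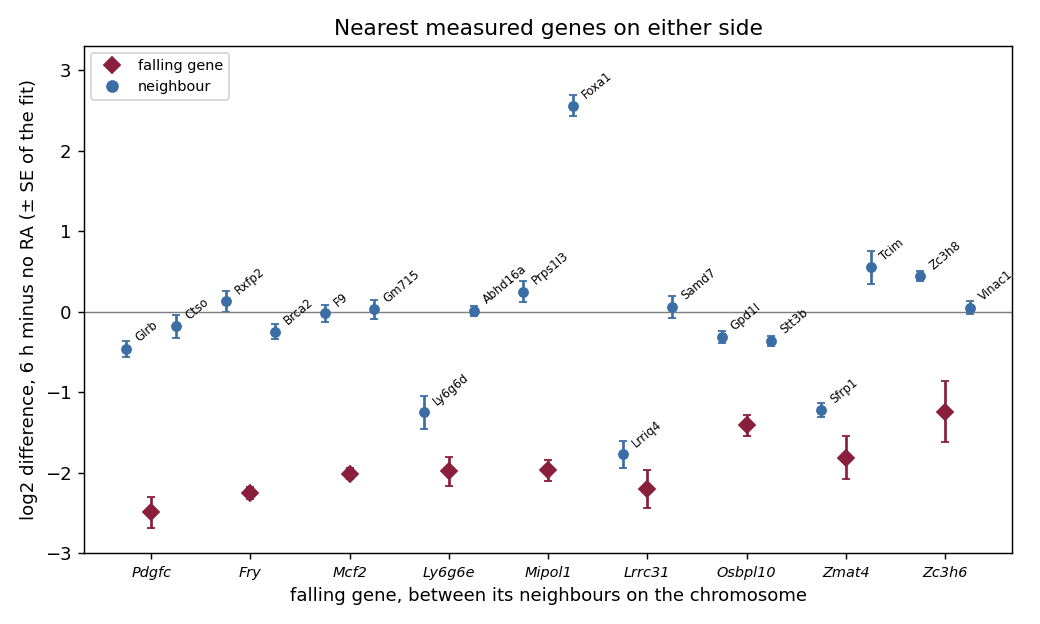
Log2 difference at 6 h against no RA (vertical axis) for each of the 9 genes and for its nearest measured gene on either side (horizontal axis), with bars for the SE of the limma fit. Lrriq4, Ly6g6d and Sfrp1 lie below -1, Foxa1 lies at 2.56 beside Mipol1, and most other neighbours lie near 0.

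The other genes of the families of the 9 were counted with 1 probe set per gene. Their counts stand against 12.5% of all genes called lower and 11.2% higher at 4 h, and 13.1% lower and 13.3% higher at 6 h. Of the 6 other PDGF ligands, receptors and activators, none was called at 2 h, 1 was called higher at 4 h, and 1 lower and 2 higher at 6 h against no RA. Pdgfa, the other main ligand of PDGF receptor alpha, was 0.83 higher at 4 h (limma, adjusted p = 0.0122), and lost that call without 4 h array A (0.0535). Its 6 h value of 0.61 (adjusted p = 0.049) lost the call without untreated array C, among others. Pdgfra, the receptor itself, was 0.39 higher and Pdgfb 0.33 lower at 6 h, and both calls were lost when single untreated or 6 h arrays were left out.

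Of 10 other Furry, NDR or LATS kinase and MOB genes, 2 were called lower and 3 higher at 4 h, and 2 lower and 2 higher at 6 h. Fryl, the paralogue of Fry, was -0.45 at 4 h and -0.38 at 6 h, and Stk38, the NDR1 kinase, was -0.27 and -0.36, its 4 h call being lost when single untreated or 4 h arrays were left out. Among 41 other Dbl-family exchange factors, 13 were called lower at 4 h, where 12.5% of all genes were, and 3 higher. At 6 h 8 of them were called lower and 5 higher. Prex1, a Rac exchange factor, was 1.01 lower at 4 h and 0.93 lower at 6 h. Arhgef26 was 1.13, 1.86 and 1.26 higher at 2, 4 and 6 h, its 2 h call being lost without any of the 2 h arrays.

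Of 24 other Ly6/uPAR genes, 4 were called lower and none higher at 4 h, and 5 lower and 1 higher at 6 h, against the same shares of all genes (12.5% lower and 11.2% higher at 4 h, 13.1% lower and 13.3% higher at 6 h). Ly6e was -0.61 at 4 h and -1.01 at 6 h, and Lypd6b -0.55 and -0.52. Of 11 other oxysterol-binding proteins, 3 were called lower at 4 h and 2 at 6 h, and none higher. Osbpl1a was -0.77 and -0.92 at those times. Among 19 other CCCH zinc finger genes none was called lower and 4 higher at 4 h, and 2 lower and 4 higher at 6 h. Zc3h12a, an RNase that degrades inflammatory transcripts, was 1.09, 1.61 and 0.96 higher at 2, 4 and 6 h. Of 4 other ZMAT genes none was called at 2 or 4 h and 2 were called higher at 6 h, Zmat2 by 0.23 and Zmat5 by 0.21, and both calls were lost when single arrays were left out. At 2 h the calls in these families were Arhgef26 and Zc3h12a, higher, and Zfp36l2, which was 0.63 lower. Of all genes, 1.25% were called higher and 0.781% lower at 2 h. The family medians at 4 h ran from -0.18 for the Dbl family to 0.23 for the PDGF genes.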

How the data were processed

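KH2 mouse ES cell RNA was measured on 12 Affymetrix arrays, 3 per group, placed from their labels. Each probe set has a deposited log2 signal, as the values show. Limma 3.4.3 is the tool named in the submitters' processing notes. The normalization method is not given in the sources used here. Array medians were 6.05 to 6.10, and no further normalization was applied. Log2 signal without detection calls gives no depth, and the number of arrays limits the precision.

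The genes and lists were chosen with earlier results of these data known. By the platform annotation 34945 probe sets had 1 gene, 932 several and 9160 none. The 64 control probe sets were left out, and the remaining 45037 were tested. Group means were fitted in limma 3.58.1 (R 4.3.3; lmFit and eBayes, 8 residual degrees of freedom, no block), with Benjamini-Hochberg adjustment over all probe sets and a threshold of 0.05. The fit was tested on simulated data.

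Named genes were all probe sets of the 9 genes, the 3 genes most correlated with each over the arrays, up to 3 called genes per family and comparison, nearest measured neighbours, genes near the rank threshold, and check genes. Levels of different probe sets were not compared, other than to take each gene's brightest. Promoters and gene order came from RefSeq GRCm38.p6, and the arrays name no build. Alternatives covered normalization, the dim filter, the variance model, array weights, the arrays and groups fitted, the replicate block and 1 probe set per gene.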

Additional observations from a re-analysis of the deposited data

How the results depend on the processing

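Of the refits of the 9 genes' probe sets in the tested comparisons, 1101 kept their side of the threshold, 10 lost a call, 29 gained one and none reversed. The 760 refits at 4 and 6 h against no RA, which were not tested, moved by less than the larger replicate SD of the groups compared. Leaving out 1 array cannot shift a group mean by that much, and refits that change only the test leave the difference as it was. This limit is therefore no measure of stability. Without untreated array C the Zc3h6 lead probe set went from -1.71 to -1.14 at 4 h and from -1.24 to -0.68 at 6 h. Among the other named genes 217 refits lost a call, 132 gained one and none reversed. The sign differed in 215 of 10160 tested refits, where neither value passed. The counts of called probe sets moved more. Some fits tested fewer probe sets, with 18193 for 1 probe set per gene against 45037 in the main fit, and fewer with the dim filter. Their counts are therefore not a measure of change in the share called. At 2 h against no RA, 815 were called, against 488 with 1 probe set per gene, 1466 with array weights and 254 with only the groups compared. At 4 h against no RA, 8422 were called, against 4893 with 1 probe set per gene and 5003 with only the groups compared, and at 6 h 9286, against 5408 and 5782. At 4 h against 2 h, 7354 were called, against 4476 with 1 probe set per gene. At 6 h against 4 h, 78 were called, against 256 with the dim filter, 204 with trended and robust variance, 499 with array weights and 39 with only the groups compared. Leaving out 1 array gave 355 to 1534 calls at 2 h, 6043 to 9144 at 4 h and 6855 to 10619 at 6 h against no RA, 4848 to 9828 at 4 h against 2 h and 7 to 578 at 6 h against 4 h. Of the 27 places for closest genes, held by 26 genes, 9 kept their gene (8 genes) without untreated array C and 1 with Spearman's correlation.

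The replicate letters were not used as pairs in the main fit. Correlations of same-letter deviations ran from -0.164 to 0.257. They were all positive at 6 h against no RA (0.013 to 0.164) and at 6 h against 4 h (0.034 to 0.257), but not in the other comparisons. Weak correlations cannot show whether the samples were paired. With the letter as a replicate block, 800, 8184 and 9063 probe sets were called at 2, 4 and 6 h against no RA, 7164 at 4 h against 2 h and 44 at 6 h against 4 h. With the block, the Zmat4 lead probe set was called at 4 h against 2 h (limma, adjusted p = 0.02).

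Calls of low signals are limited because the arrays carry no test against background here. The dim filter removes the lead probe sets of Lrrc31 and Zc3h6, which then have no value.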
